A study of Mus musculus with 24 samples.

Results

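Lysosomes are the acidic organelles in which cells break down protein, lipid, sugar chains and engulfed debris. The 37 genes described here, from Ctss to Tfeb, encode proteases, glycosidases, lipid enzymes and carriers, membrane proteins, a secreted regulator of lysosomal function and the transcription factor Tfeb. They were chosen as a list of gene symbols. All 37 were found among the 31346 nuclear genes of the count table, and all 37 passed the filter on low counts in each of the 5 comparisons.

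As background, a lysosome is kept acidic by a proton pump in its membrane, the vacuolar ATPase, and most of its enzymes work best in that acid. Newly made enzymes are sorted to it by mannose 6-phosphate receptors, and Tfeb and its relatives bind short E-box motifs in the promoters of many lysosomal genes when the kinase mTORC1 is inactive. In the retina, every neuron and glial cell has lysosomes. The pigment epithelium, which digests shed photoreceptor outer segments each day, and microglia and macrophages, which clear dying photoreceptors, are known for a high content of lysosomal enzymes.

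RNA was sequenced from whole retinas of 24 mice, with 1 retina per mouse. In the rd10 strain a point mutation of Pde6b, a subunit of the phosphodiesterase of rods, leads to rod death, which darkness delays. The rd10 TMB mice (n = 8) and the rd10 vehicle mice (n = 8) were reared in darkness, moved to vivarium light at P29 and killed at P37 by the series text (P36 by the labels). From P28 the rd10 TMB mice ate chow with tamsulosin, metoprolol and bromocriptine (an alpha-1 adrenergic blocker, a beta-1 adrenergic blocker and a dopamine agonist), while the rd10 vehicle mice ate the base chow. The rd10 DR mice (n = 4) stayed in darkness on base chow until P28 by the series text (P30 by the labels). The C57BL/6J mice (WT, n = 4) ate base chow and shared the housing, dark rearing included, and the age of the rd10 TMB and rd10 vehicle mice. Each group held as many females as males. The rd10 DR mice thus differed from the other groups in age and light history, which cannot be told apart from the stage of disease.

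Nuclear counts per library ranged from 56799680 to 86471014, and the 37 genes took between 0.386% and 0.679% of them. Levels below are CPM, counts scaled to a common library total, corrected by TMM factors, which adjust library totals for differences in composition. Fold changes are on the log2 scale with their standard errors (SE), and a gene was called higher or lower where the Benjamini-Hochberg adjusted p of edgeR's quasi-likelihood test over all genes was under 0.05. The rod markers fell in every rd10 group relative to WT, with 12 of 12 called lower in rd10 TMB, rd10 vehicle and rd10 DR retinas. Markers of microglia and macrophages summed to 235 to 346 CPM in rd10 TMB, 267 to 303 CPM in rd10 vehicle, 181 to 236 CPM in rd10 DR retinas, against 44.8 to 72.0 CPM in WT retinas. Of these 21 markers, 21 were higher than in WT in rd10 TMB retinas, 21 in rd10 vehicle retinas and 20 in rd10 DR retinas. In RNA from whole retinas, more cells of a type and more RNA per cell cannot be told apart, and the part of these markers in the changes of the lysosomal genes was not tested. Other markers moved as well. All 10 Müller glia markers were higher than in WT in rd10 TMB (median log2 fold change 0.73) and rd10 vehicle retinas (0.82), and 6 of 10 in rd10 DR retinas. Of 9 vessel markers, 4 were higher in rd10 TMB, 7 in rd10 vehicle and 6 in rd10 DR retinas than in WT. Of the blood leukocyte markers tested, 3 of 4 were higher in rd10 TMB, 3 of 4 in rd10 vehicle and 1 of 2 in rd10 DR retinas, and the 5 erythrocyte markers were higher in rd10 DR alone of the 3 groups. Their part was not tested either. The sum of 8 pigment markers was 1421 CPM in rd10 TMB retina 3, 998 CPM in rd10 TMB retina 4, 1255 CPM in rd10 vehicle retina 1 and 1051 CPM in WT retina 3, against 72.4 to 666 CPM in the other 20 retinas. Of the 8 markers, 4 were called higher in rd10 TMB and 1 in rd10 vehicle than in WT, and 3 were called lower in rd10 DR than in WT. These markers were drawn up for the pigment epithelium, a layer that dissection should leave behind, but their sum mixes 2 patterns. In WT retina 3 and rd10 vehicle retina 1 most of it came from Dct and Mlana (920 and 1007 CPM), genes of melanin-bearing cells in general. Rpe65, the visual cycle enzyme of the pigment epithelium, was 60.1, 70.1 and 83.9 CPM in rd10 TMB retinas 2, 3 and 4, against 20.4 CPM in rd10 vehicle retina 1, 14.8 CPM in WT retina 3 and 2.08 to 17.7 CPM in the other 19 retinas. Calls that changed without the 4 retinas above 900 CPM of the sum, or without the 3 rd10 TMB retinas above 50 CPM of Rpe65, are given below, choices made after seeing the data. Title prefixes (RD8, RD9 and RD10, with no meaning stated) divided the rd10 TMB and rd10 vehicle retinas further. The rd10 TMB group held 3 RD9 and 5 RD10 retinas, and the rd10 vehicle group 3 RD9, 4 RD10 and 1 RD8 retinas.

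Most of the 37 genes were more abundant in degenerating retinas than in WT retinas, and a minority were less abundant. In rd10 vehicle retinas 25 of 37 were higher and 6 were lower than in WT. Over all 20763 genes tested in that comparison, 31.6% were higher and 30.2% were lower. The median log2 fold change was 0.42 for the 37 genes and 0.01 for all genes tested. In rd10 TMB retinas 24 of 37 were higher and 5 were lower than in WT (27.2% and 24.9% of 20848 genes), with a median of 0.36 for the 37 genes. In rd10 DR retinas, the earliest stage, 10 of 37 were higher and 2 were lower than in WT (14.5% and 10.2% of 20051 genes), with a median of 0.18. These 3 comparisons share the 4 WT retinas. Lack of overlap with WT, given for single genes below, was common among all genes. In rd10 vehicle retinas 15 of the 37 lay above WT and 5 below without overlap (22.1% and 19.8% of all genes tested). The counts were 11 and 3 in rd10 TMB (18.1% and 14.1%) and 8 and 4 in rd10 DR retinas (15% and 12%). Without the 3 rd10 TMB retinas high in Rpe65, 19 were higher and 4 were lower in rd10 TMB than in WT, and Ctsb, Ctsa, Hexa, Asah1, Npc1 and Cd63 lost the call. Without the retinas above 900 CPM of the pigment marker sum, 26 were higher and 4 were lower in rd10 TMB than in WT, with Ctsl and Npc2 gained and Npc1 lost. The DR count depended on WT retina 3: without it, 21 of 37 were higher and 3 were lower in rd10 DR than in WT retinas, and the median was 0.31. Gained as higher were Cd63, Ctsa, Ctsl, Glb1, Gusb, Hexa, Lamp2, Lipa, Man2b1, Npc2 and Psap, and gained as lower was Npc1. The direction of the smaller changes depended on scaling. With library totals in place of TMM factors, the log2 median over all genes in rd10 vehicle against WT moved to 0.22, and 27 of 37 genes were called higher and 2 lower.

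**Figure D1:**
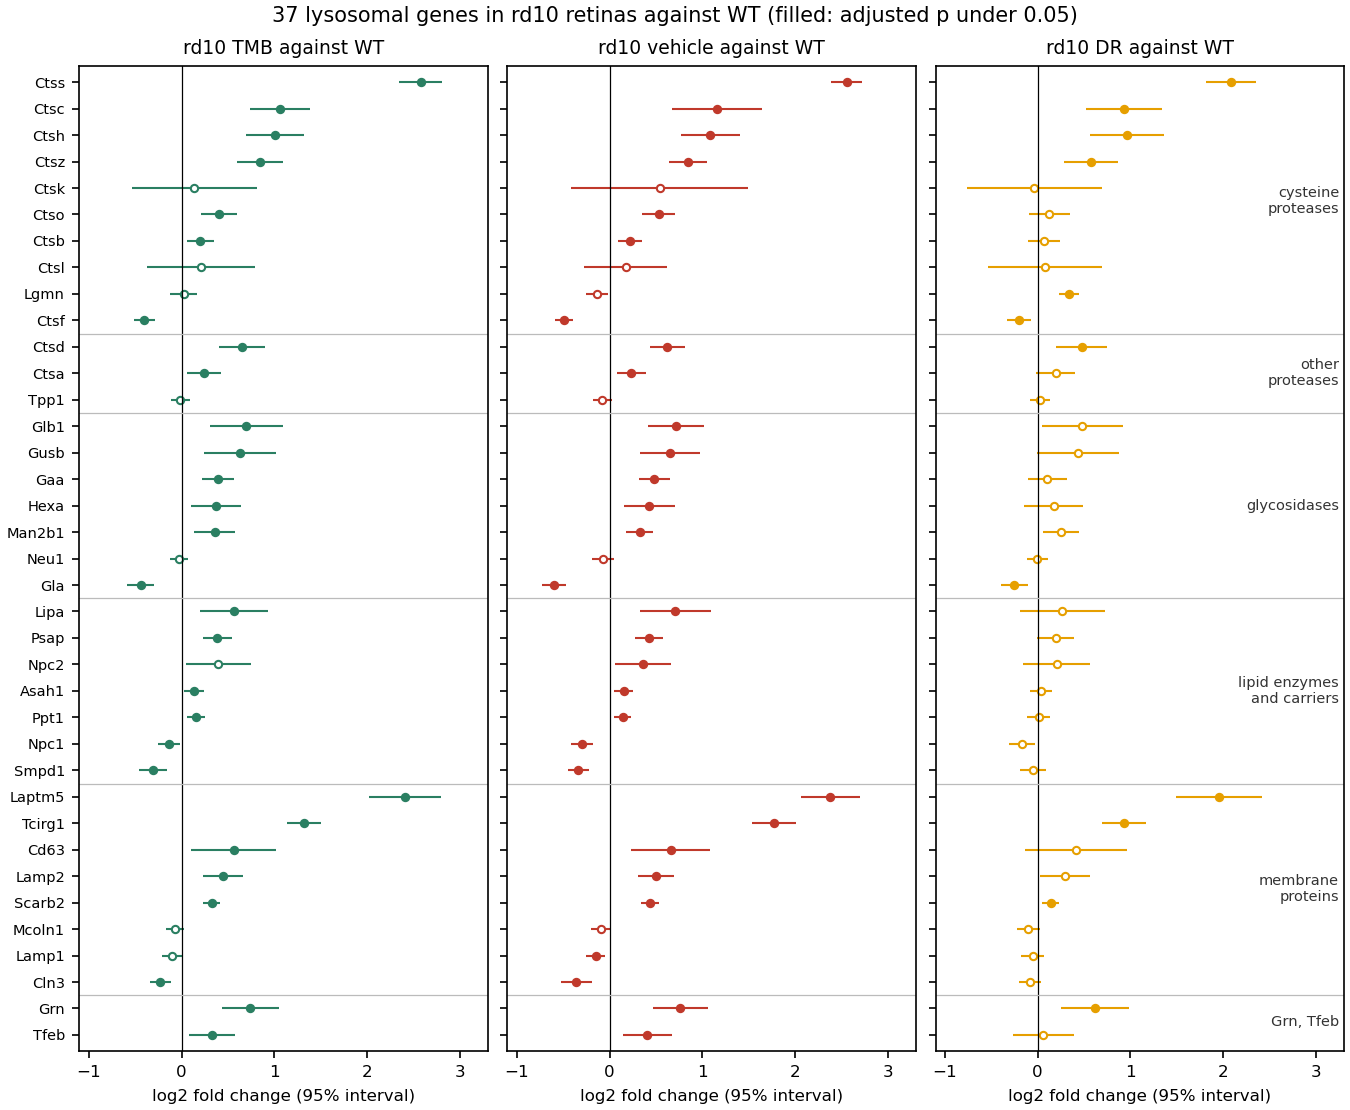
Log2 fold change of each of the 37 lysosomal genes (rows, grouped by role) in rd10 TMB, rd10 vehicle and rd10 DR retinas against WT, with 95% intervals from edgeR; filled points passed an adjusted p of 0.05. Ctss and Laptm5 stand farthest to the right in each panel, while Ctsf and Gla lie left of 0 and are filled in all 3.

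Promoter sequences are shown for the genes that hold an E-box, since Tfeb is known to bind there. RefSeq promoter windows (GRCm38.p6, 250 bases before to 50 bases after the transcription start) were matched for 33 of 37 genes. They were searched for CACGTG, the E-box core, and for TCACGTGA, the 8-base form typical of lysosomal promoters, which contains the core. Both motifs read the same on both strands. The 8-base form was found in 5 of 33 genes (15.2%, against 1.83% of the 12755 tested genes with a window and 1.12% of all 27025 genes with a window). Its matches are printed below as 30-base stretches with the motif in capitals, 5′ to 3′ on the gene's own strand, from Ctsa and Ctsd, which were higher in rd10 vehicle than in WT retinas, from Gla and Cln3, which were lower, and from Mcoln1, which passed no threshold.
Ctsd (chr7:142387908-142387937, minus strand): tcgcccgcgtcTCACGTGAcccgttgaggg
Ctsa (chr2:164833749-164833778, plus strand): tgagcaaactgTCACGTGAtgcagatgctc
Ctsa (chr2:164833766-164833795, plus strand): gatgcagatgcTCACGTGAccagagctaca
Gla (chrX:134601182-134601211, minus strand): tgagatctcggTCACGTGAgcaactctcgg
Gla (chrX:134601215-134601244, minus strand): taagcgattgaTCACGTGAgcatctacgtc
Cln3 (chr7:126583340-126583369, minus strand): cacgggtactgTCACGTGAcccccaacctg
Mcoln1 (chr8:3500462-3500491, plus strand): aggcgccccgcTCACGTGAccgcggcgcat

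The core was found in 11 of 33 genes (33.3%, against 10.8% of tested genes and 8.09% of all genes with a window): the 5 above and Ctsf, Ctsl, Gaa, Glb1, Lamp1 and Lgmn. Lamp1, the abundant membrane glycoprotein that coats lysosomes from within, had 4 cores in the 61 bases before its start. By direction in rd10 vehicle against WT, the core was present in 4 of 22 genes that were higher, 4 of 5 that were lower and 3 of 6 that passed no threshold. The 4 lower genes were Ctsf, Gla, Lamp1 and Cln3. Lamp1 and Cln3 lost that call with library totals in place of TMM factors, so the split by direction depended on scaling. The core was not among the letters of the Ctss, Ctsc, Laptm5 and Tcirg1 windows, the genes with the largest increases. The Ctss window held another motif, chosen after the values were known: GAGGAAGT, a form bound by PU.1 (Spi1), the transcription factor of microglia and macrophages, read on either strand. It occurred in 4 of 33 genes (12.1%: Ctsc, Ctss, Gla and Gusb), in 3.44% of tested genes and in 3.69% of all genes with a window. The 2 stretches below show the Lamp1 cores and the Ctss match (its reverse complement) in capitals, each with the transcription start inside it. A match is a string of letters in a window and not evidence of binding.
Lamp1 (chr8:13159076-13159165, plus strand): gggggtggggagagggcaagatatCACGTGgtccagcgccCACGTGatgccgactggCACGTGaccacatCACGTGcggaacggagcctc
Ctss (chr3:95526701-95526800, plus strand): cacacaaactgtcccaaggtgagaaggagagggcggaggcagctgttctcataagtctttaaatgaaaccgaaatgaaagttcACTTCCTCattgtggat

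**Figure D2:**
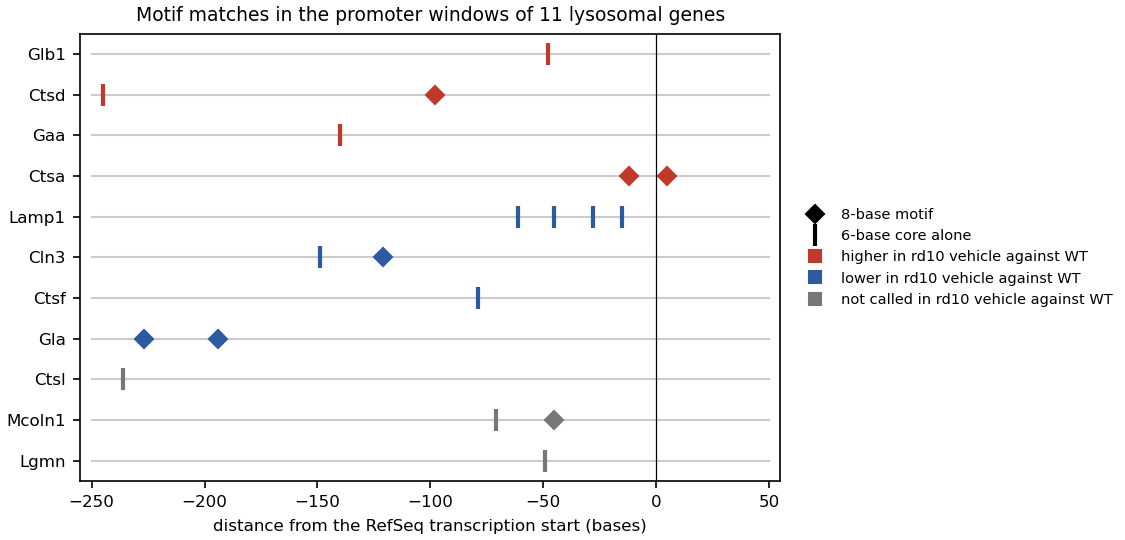
Position of each E-box match in the promoter windows of the 11 genes that hold at least 1, in bases from the RefSeq start; diamonds mark the 8-base form and bars the core alone, coloured by the call in rd10 vehicle against WT. The 4 bars of Lamp1 lie within 61 bases of its start, and the 2 diamonds of Gla lie farthest from the start among the 8-base matches.

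The cysteine proteases held the largest change among the 37. Cathepsin S (Ctss; chr3:95526786-95556403, GRCm38), the cathepsin of microglia and macrophages that stays active at neutral pH, was measured between 88.7 and 119.6 CPM (median 97.2) in rd10 TMB retinas and between 92.6 and 112 CPM (median 101) in rd10 vehicle retinas. It was 55.6, 83.2, 78.4 and 73.0 CPM in rd10 DR retinas and 18.01, 14.8, 18.4 and 17.6 CPM in WT retinas. The lowest rd10 retina of any group was above the highest WT retina. Ctss was 5.97-fold higher in rd10 TMB than in WT retinas (log2 fold change 2.58, SE 0.11, adjusted p = 3.05e-09), 5.88-fold higher in rd10 vehicle (log2 fold change 2.56, SE 0.080, adjusted p = 9.49e-11) and 4.25-fold higher in rd10 DR (log2 fold change 2.09, SE 0.12, adjusted p = 2.2e-06). Cathepsin C (Ctsc), which activates serine proteases of immune cells, was between 30.4 and 42.4 CPM (median 36.6) in rd10 TMB retinas and between 32.8 and 70.7 CPM (median 35.0) in rd10 vehicle retinas. It was 33.7, 33.4, 35.5 and 30.9 CPM in rd10 DR retinas and 17.7, 13.99, 25.7 and 13.1 CPM in WT retinas. Its rd10 groups overlapped each other and none overlapped WT, and rd10 vehicle retina 4 stood alone at 70.7 CPM. Ctsc was 2.23-fold higher in rd10 vehicle than in WT retinas (log2 fold change 1.16, SE 0.23, adjusted p = 0.000451). Cathepsin H (Ctsh), an aminopeptidase, was between 35.5 and 49.1 CPM (median 39.9) in rd10 TMB retinas and between 33.3 and 46.7 CPM (median 44.4) in rd10 vehicle retinas. It was 33.6, 43.4, 41.2 and 36.7 CPM in rd10 DR retinas and 21.6, 14.3, 27.6 and 16.6 CPM in WT retinas. The DR values already lay in the range of the later rd10 groups, and Ctsh was 2.13-fold higher in rd10 vehicle than in WT (log2 fold change 1.09, SE 0.15, adjusted p = 1.74e-05) and 1.95-fold higher in rd10 DR than in WT (log2 fold change 0.96, SE 0.18, adjusted p = 0.00313).

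Cathepsins Z, O and B were also higher in rd10 vehicle than in WT retinas, by 1.80-fold, 1.44-fold and 1.17-fold, so that 6 of 10 cysteine proteases were higher, where 31.6% of all genes were. Only cathepsin F (Ctsf) of the 10 was lower. It was measured between 192 and 225 CPM (median 216) in rd10 TMB retinas and between 184 and 209 CPM (median 198) in rd10 vehicle retinas. It was 215, 257, 242 and 239 CPM in rd10 DR retinas and 279.6, 269, 285 and 269.5 CPM in WT retinas. Every rd10 retina was below every WT retina, and Ctsf was lower than in WT in rd10 TMB (log2 fold change -0.40, SE 0.054, adjusted p = 2.29e-05), rd10 vehicle (log2 fold change -0.49, SE 0.044, adjusted p = 3.58e-07) and rd10 DR retinas (log2 fold change -0.20, SE 0.058, adjusted p = 0.0295). The remaining 3, Ctsk, Ctsl and Lgmn, passed no threshold in rd10 vehicle against WT. Cathepsin L (Ctsl) moved with single retinas: between 237 and 517 CPM (median 247) in rd10 TMB retinas and between 254 and 332 CPM (median 267) in rd10 vehicle retinas. It was 237, 291, 251 and 249 CPM in rd10 DR retinas and 200.5, 164, 444 and 167 CPM in WT retinas. The highest rd10 TMB value belonged to retina 3 and the highest rd10 vehicle value to retina 1, and WT retina 3 was the highest WT value, each a retina above 900 CPM of the pigment marker sum and the 3 highest in Dct and Mlana. Without the 4 retinas above that limit Ctsl was called higher in rd10 TMB, rd10 vehicle and rd10 DR than in WT. Without the 3 rd10 TMB retinas high in Rpe65 its difference between rd10 TMB and WT was -0.012 on the log2 scale (adjusted p = 0.971).

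Legumain (Lgmn), the asparaginyl endopeptidase that processes cathepsins, had a course of its own. It was measured between 247 and 329 CPM (median 282) in rd10 TMB retinas and between 228 and 276 CPM (median 252) in rd10 vehicle retinas. It was 362, 333, 337 and 349 CPM in rd10 DR retinas and 296, 257, 266 and 282 CPM in WT retinas. The rd10 DR retinas stood above every retina of the other groups. Lgmn was 1.27-fold higher in rd10 DR than in WT (log2 fold change 0.34, SE 0.050, adjusted p = 0.000795) and 1.38-fold lower in rd10 vehicle than in rd10 DR retinas (log2 fold change -0.46, SE 0.052, adjusted p = 1.16e-05).

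Of the other proteases, cathepsin D (Ctsd), the major aspartic protease of the lysosome, was measured between 260.4 and 377 CPM (median 280.3) in rd10 TMB retinas and between 264.9 and 313 CPM (median 291) in rd10 vehicle retinas. It was 228, 291, 266 and 242 CPM in rd10 DR retinas and 196, 158, 231 and 159 CPM in WT retinas. Both later rd10 groups lay above WT without overlap, and the lowest DR retina lay just under the highest WT retina. Ctsd was higher than in WT in rd10 TMB (log2 fold change 0.65, SE 0.12, adjusted p = 0.000276), rd10 vehicle (log2 fold change 0.62, SE 0.089, adjusted p = 2.94e-05) and rd10 DR retinas (log2 fold change 0.48, SE 0.12, adjusted p = 0.0186). Cathepsin A (Ctsa), a serine carboxypeptidase that also protects Glb1 and Neu1, was between 117 and 155 CPM (median 124) in rd10 TMB retinas and between 118 and 144 CPM (median 129) in rd10 vehicle retinas. It was 111, 137, 122 and 123 CPM in rd10 DR retinas and 108, 101, 128 and 95.9 CPM in WT retinas. The groups overlapped, and the difference of rd10 vehicle from WT was small (log2 fold change 0.23, SE 0.071, adjusted p = 0.0107). Tpp1, the tripeptidyl peptidase, passed no threshold (log2 fold change -0.080, SE 0.048, adjusted p = 0.158 in rd10 vehicle against WT), and with library totals in place of TMM factors it was called higher, by 0.12 on the log2 scale.

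**Figure D3:**
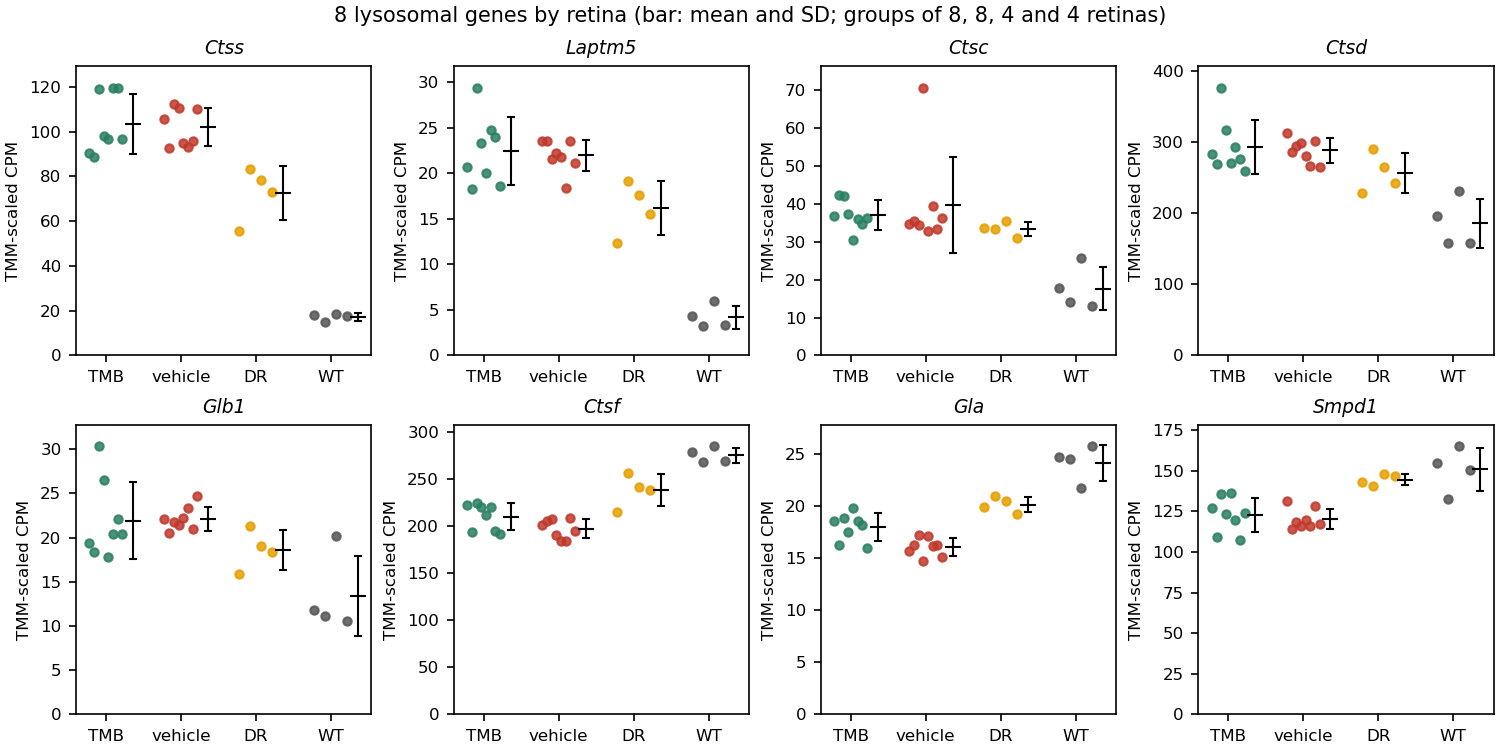
TMM-scaled CPM of 8 lysosomal genes in each retina of the rd10 TMB, rd10 vehicle, rd10 DR and WT groups, with the mean and SD beside each group. Ctss and Laptm5 separate all rd10 retinas from WT, Glb1 shows WT retina 3 at 20.2 CPM inside the rd10 TMB range, and Ctsf and Gla are highest in WT.

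Among the 7 glycosidases, 5 were higher and 1 was lower in rd10 vehicle than in WT retinas (31.6% and 30.2% of all genes). Beta-galactosidase (Glb1) was measured between 17.8 and 30.3 CPM (median 20.4) in rd10 TMB retinas and between 20.5 and 24.7 CPM (median 21.96) in rd10 vehicle retinas. It was 15.8, 21.3, 19.1 and 18.3 CPM in rd10 DR retinas and 11.8, 11.1, 20.2 and 10.6 CPM in WT retinas. WT retina 3 reached the rd10 range, and no rd10 vehicle retina was as low as the highest WT retina (log2 fold change 0.71, SE 0.14, adjusted p = 0.000513). Beta-glucuronidase (Gusb) was between 15.6 and 26.8 CPM (median 17.9) in rd10 TMB retinas and between 16.3 and 22.1 CPM (median 18.9) in rd10 vehicle retinas. It was 14.9, 18.7, 15.5 and 16.3 CPM in rd10 DR retinas and 11.2, 9.14, 18.4 and 9.87 CPM in WT retinas. WT retina 3 again lay inside the rd10 range (log2 fold change 0.65, SE 0.15, adjusted p = 0.00184 in rd10 vehicle against WT), and Gaa, Hexa and Man2b1 were higher by 1.40-fold, 1.35-fold and 1.254-fold. None of the 5 passed the threshold in rd10 DR against WT. Without WT retina 3, Glb1, Gusb, Hexa and Man2b1 were called higher in rd10 DR. The alpha-galactosidase that clears globotriaosylceramide (Gla) went the other way: between 15.97 and 19.8 CPM (median 18.4) in rd10 TMB retinas and between 14.8 and 17.2 CPM (median 16.2) in rd10 vehicle retinas. It was 19.9, 20.9, 20.5 and 19.3 CPM in rd10 DR retinas and 24.7, 24.5, 21.7 and 25.7 CPM in WT retinas. Every rd10 retina was below every WT retina, and Gla was lower than in WT in rd10 TMB (log2 fold change -0.44, SE 0.068, adjusted p = 8.91e-05), rd10 vehicle (log2 fold change -0.60, SE 0.061, adjusted p = 1.16e-06) and rd10 DR retinas (log2 fold change -0.25, SE 0.067, adjusted p = 0.0203). Neu1, the sialidase, passed no threshold (log2 fold change -0.069, SE 0.054, adjusted p = 0.28 in rd10 vehicle against WT), and with library totals it was called higher, by 0.13 on the log2 scale.

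Of the 7 lipid enzymes and carriers, 5 were higher and 2 were lower in rd10 vehicle than in WT retinas, a lower share near the 30.2% of all genes. None passed the threshold in rd10 DR against WT. Without WT retina 3, Lipa, Npc2 and Psap were called higher and Npc1 lower in rd10 DR. Acid lipase (Lipa), which hydrolyses cholesteryl esters, was between 35.5 and 50.7 CPM (median 40.0) in rd10 TMB retinas and between 39.0 and 59.1 CPM (median 43.3) in rd10 vehicle retinas. It was 30.5, 35.4, 34.1 and 31.5 CPM in rd10 DR retinas and 28.9, 21.04, 41.2 and 18.6 CPM in WT retinas. The lowest rd10 vehicle retina was under WT retina 3 and over the other WT retinas (log2 fold change 0.71, SE 0.18, adjusted p = 0.00312). Prosaposin (Psap), the precursor of the saposins, was the most abundant of the 37 per length of transcript, with 467 CPM per kb of merged exons in rd10 TMB, 479.6 in rd10 vehicle, 403 in rd10 DR and 355 in WT retinas. It was between 1211 and 1456 CPM (median 1243) in rd10 TMB retinas and between 1224 and 1431 CPM (median 1321) in rd10 vehicle retinas. It was 1017, 1216, 1099 and 1090 CPM in rd10 DR retinas and 999.8, 912, 1135 and 846 CPM in WT retinas. Neither later rd10 group overlapped WT, and Psap was 1.34-fold higher in rd10 vehicle than in WT (log2 fold change 0.42, SE 0.070, adjusted p = 0.000103).

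The 2 carriers that pass cholesterol out of the lysosome differed in direction. The soluble Npc2 was between 55.4 and 92.8 CPM (median 60.1) in rd10 TMB retinas and between 57.0 and 82.2 CPM (median 61.0) in rd10 vehicle retinas. It was 52.8, 57.8, 57.7 and 56.1 CPM in rd10 DR retinas and 47.3, 40.0, 69.9 and 38.4 CPM in WT retinas. It was higher in rd10 vehicle than in WT (log2 fold change 0.36, SE 0.14, adjusted p = 0.0359), with WT retina 3 inside the rd10 range. Npc2 passed no threshold in rd10 TMB or rd10 DR against WT, and it was called higher in both without the retinas above 900 CPM of the pigment marker sum. The membrane partner Npc1 was between 89.7 and 109.8 CPM (median 97.8) in rd10 TMB retinas and between 80.8 and 97.7 CPM (median 88.6) in rd10 vehicle retinas. It was 102, 88.0, 97.6 and 94.1 CPM in rd10 DR retinas and 106, 119.7, 102 and 105 CPM in WT retinas. No rd10 vehicle retina reached the lowest WT retina, and Npc1 was 1.23-fold lower in rd10 vehicle than in WT (log2 fold change -0.30, SE 0.055, adjusted p = 0.000256). Acid sphingomyelinase (Smpd1) was between 108 and 136 CPM (median 124) in rd10 TMB retinas and between 114 and 131 CPM (median 118) in rd10 vehicle retinas. It was 143, 140.4, 148 and 147 CPM in rd10 DR retinas and 155, 133, 165.1 and 151 CPM in WT retinas. The rd10 DR retinas lay among the WT values, and the decrease appeared in rd10 TMB (log2 fold change -0.31, SE 0.071, adjusted p = 0.0021) and rd10 vehicle (log2 fold change -0.34, SE 0.053, adjusted p = 6.8e-05) against WT. Asah1 and Ppt1 were higher in rd10 vehicle than in WT by 1.11-fold and 1.10-fold.

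Of the 8 membrane proteins, 5 were higher and 2 were lower in rd10 vehicle than in WT retinas (31.6% and 30.2% of all genes). Laptm5, a transmembrane protein of immune cells that include microglia, was between 18.3 and 29.4 CPM (median 22.01) in rd10 TMB retinas and between 18.3 and 23.5 CPM (median 22.01) in rd10 vehicle retinas. It was 12.3, 19.1, 17.6 and 15.6 CPM in rd10 DR retinas and 4.28, 3.246, 5.96 and 3.28 CPM in WT retinas. All rd10 retinas were above all WT retinas, by 5.31-fold in rd10 TMB (log2 fold change 2.41, SE 0.18, adjusted p = 2.04e-07), 5.20-fold in rd10 vehicle (log2 fold change 2.38, SE 0.15, adjusted p = 3.06e-08) and 3.88-fold in rd10 DR (log2 fold change 1.96, SE 0.21, adjusted p = 0.000103). Tcirg1 encodes the a3 subunit of the proton pump, the form used by osteoclasts and macrophages. It was between 19.2 and 25.1 CPM (median 22.9) in rd10 TMB retinas and between 23.9 and 35.2 CPM (median 31.8) in rd10 vehicle retinas. It was 14.8, 18.1, 19.1 and 15.98 CPM in rd10 DR retinas and 9.23, 9.05, 9.70 and 7.89 CPM in WT retinas. The groups formed steps, with WT lowest, rd10 DR next and without overlap with WT or rd10 TMB, and rd10 vehicle highest with overlap with rd10 TMB. Tcirg1 was 2.50-fold higher than WT in rd10 TMB (log2 fold change 1.32, SE 0.087, adjusted p = 6.56e-08), 3.41-fold in rd10 vehicle (log2 fold change 1.77, SE 0.11, adjusted p = 3.26e-08) and 1.91-fold in rd10 DR (log2 fold change 0.94, SE 0.11, adjusted p = 0.000161). The tetraspanin Cd63 was between 8.98 and 15.9 CPM (median 10.47) in rd10 TMB retinas and between 9.31 and 14.4 CPM (median 11.6) in rd10 vehicle retinas. It was 10.2, 10.9, 9.47 and 8.91 CPM in rd10 DR retinas and 6.22, 5.54, 12.5 and 5.43 CPM in WT retinas. The WT retina at 12.5 CPM was retina 3, and Cd63 was higher in rd10 vehicle than in WT by 1.58-fold (log2 fold change 0.66, SE 0.20, adjusted p = 0.0101).

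The paired membrane glycoproteins Lamp1 and Lamp2 moved apart. Lamp1 was between 239.6 and 276 CPM (median 250.2) in rd10 TMB retinas and between 234 and 279 CPM (median 246) in rd10 vehicle retinas. It was 248, 254, 268 and 272 CPM in rd10 DR retinas and 269, 254, 292 and 272 CPM in WT retinas. The groups overlapped, and the small decrease in rd10 vehicle against WT (log2 fold change -0.15, SE 0.049, adjusted p = 0.0165) turned to 0.053 with library totals in place of TMM factors. Lamp2 was 1.41-fold higher in rd10 vehicle than in WT (log2 fold change 0.50, SE 0.091, adjusted p = 0.000262), and Scarb2, the receptor that carries glucocerebrosidase to the lysosome, was 1.35-fold higher (log2 fold change 0.44, SE 0.044, adjusted p = 1.06e-06). Cln3, mutated in juvenile Batten disease, was between 29.0 and 35.3 CPM (median 31.9) in rd10 TMB retinas and between 24.4 and 34.0 CPM (median 29.8) in rd10 vehicle retinas. It was 32.9, 35.7, 36.0 and 36.0 CPM in rd10 DR retinas and 37.6, 37.9, 37.4 and 37.4 CPM in WT retinas. The WT retinas differed by little and lay above every rd10 retina, and Cln3 was lower in rd10 TMB (log2 fold change -0.23, SE 0.052, adjusted p = 0.00195) and rd10 vehicle (log2 fold change -0.36, SE 0.077, adjusted p = 0.00106) than in WT. Mcoln1, the calcium channel of the lysosome, passed no threshold, and without the retinas above 900 CPM of the pigment marker sum it was called lower in rd10 vehicle than in WT.

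Progranulin (Grn), a secreted factor that microglia and neurons deliver to lysosomes, was between 79.5 and 117 CPM (median 84.4) in rd10 TMB retinas and between 78.2 and 114 CPM (median 88.6) in rd10 vehicle retinas. It was 72.2, 84.1, 87.8 and 79.3 CPM in rd10 DR retinas and 52.9, 49.5, 72.5 and 37.1 CPM in WT retinas. The later rd10 groups did not overlap WT, and Grn was higher than in WT in rd10 TMB (log2 fold change 0.74, SE 0.15, adjusted p = 0.000625), rd10 vehicle (log2 fold change 0.76, SE 0.14, adjusted p = 0.000221) and rd10 DR retinas (log2 fold change 0.62, SE 0.17, adjusted p = 0.0197). The transcription factor Tfeb was present at a low level: between 9.97 and 12.97 CPM (median 11.7) in rd10 TMB retinas and between 10.8 and 14.6 CPM (median 11.8) in rd10 vehicle retinas. It was 10.53, 9.63, 8.57 and 8.87 CPM in rd10 DR retinas and 8.07, 7.68, 12.1 and 8.43 CPM in WT retinas. WT retina 3 lay inside the rd10 vehicle range, and Tfeb was higher in rd10 vehicle than in WT (log2 fold change 0.41, SE 0.12, adjusted p = 0.0109) and than in rd10 DR (log2 fold change 0.36, SE 0.096, adjusted p = 0.00713).

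Of the 6 genes lower in rd10 vehicle than in WT, Smpd1, Npc1, Lamp1 and Cln3 lost the call with library totals, while Ctsf and Gla kept it. In rd10 DR against WT, Ctsf and Gla lost it as well. Exons of 10 of the 37 genes overlap exons of a gene on the opposite strand (Ctsb, Ctsl, Ctsz, Ctsa, Hexa, Ppt1, Npc1, Lamp1, Cln3 and Grn), and the library kit does not mark strand, so reads there cannot be assigned with certainty. Exons of 3 genes (Ctsl, Ctsd and Glb1) overlap exons of another gene on the same strand, where strand could not separate the reads either. The exons of 25 of the 37 overlap no other gene, those of Ctss, Ctsc, Ctsh, Laptm5 and Tcirg1 among them.

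Few of the 37 genes were called between the TMB and vehicle diets. Of the 37, 1 was higher and 1 was lower in rd10 TMB than in rd10 vehicle, against 3.37% higher and 2.32% lower of 20251 genes tested, so that the called share of the 37 genes was near that of all genes. The median log2 fold change was -0.0042 for the 37 genes and 0.00043 for all genes. Markers of microglia and macrophages passed no threshold in this comparison (0 of 21), while 11 of 12 rod markers were higher and 3 of 9 vessel markers and 1 of 10 Müller glia markers were lower in rd10 TMB retinas. All 10 Müller glia estimates were below 0 (-0.34 to -0.0064, median -0.16). None of these marker calls held without rd10 vehicle retina 1 or 5. The part of these in the lysosomal values was not tested. Ctss differed by 0.02 on the log2 scale (95% interval -0.13 to 0.17) and Laptm5 by 0.03 (-0.15 to 0.21).

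Neither of the 2 calls held in every fit. The count was 0 within the RD9 or the RD10 retinas alone and 0 without rd10 vehicle retina 1 or 5. It was also 0 without the retinas above 900 CPM of the pigment marker sum and 0 without the 3 retinas high in Rpe65. DESeq2 called both genes (adjusted p = 6.82e-05 for Tcirg1 and 0.0129 for Npc1). The called decrease was Tcirg1, at between 19.2 and 25.1 CPM (median 22.9) in rd10 TMB retinas and between 23.9 and 35.2 CPM (median 31.8) in rd10 vehicle retinas, with 1 rd10 vehicle retina (23.9 CPM) inside the rd10 TMB range and the next (25.4 CPM) just above it. Its level was 1.37-fold lower in rd10 TMB than in rd10 vehicle retinas (log2 fold change -0.45, SE 0.080, adjusted p = 0.0231). The estimate was -0.54 within the RD9 retinas and -0.44 within the RD10 retinas, where the adjusted p was 0.103 and 0.185. Without the retinas above 900 CPM of the pigment marker sum it was -0.41 with an adjusted p of 0.0753, and without the retinas high in Rpe65 -0.44 with an adjusted p of 0.0616. Of the 16 fits that left out 1 retina, Tcirg1 was called in 14, with estimates from -0.50 to -0.42 over all 16. The call was lost without rd10 vehicle retina 1 (adjusted p = 0.0522) or retina 5 (adjusted p = 0.0505). The called increase was Npc1, at between 89.7 and 109.8 CPM (median 97.8) in rd10 TMB retinas and between 80.8 and 97.7 CPM (median 88.6) in rd10 vehicle retinas, with overlap of the groups. It was 1.12-fold higher in rd10 TMB than in rd10 vehicle (log2 fold change 0.16, SE 0.042, adjusted p = 0.0352). The estimate was 0.21 within RD9 retinas and 0.13 within RD10 retinas (adjusted p = 0.274 and 0.265), it was 0.19 without the retinas above 900 CPM of the pigment marker sum (adjusted p = 0.0753) and 0.20 without the retinas high in Rpe65 (adjusted p = 0.0616), and the call was lost in 10 of the 16 fits that left out 1 retina.

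**Figure D4:**
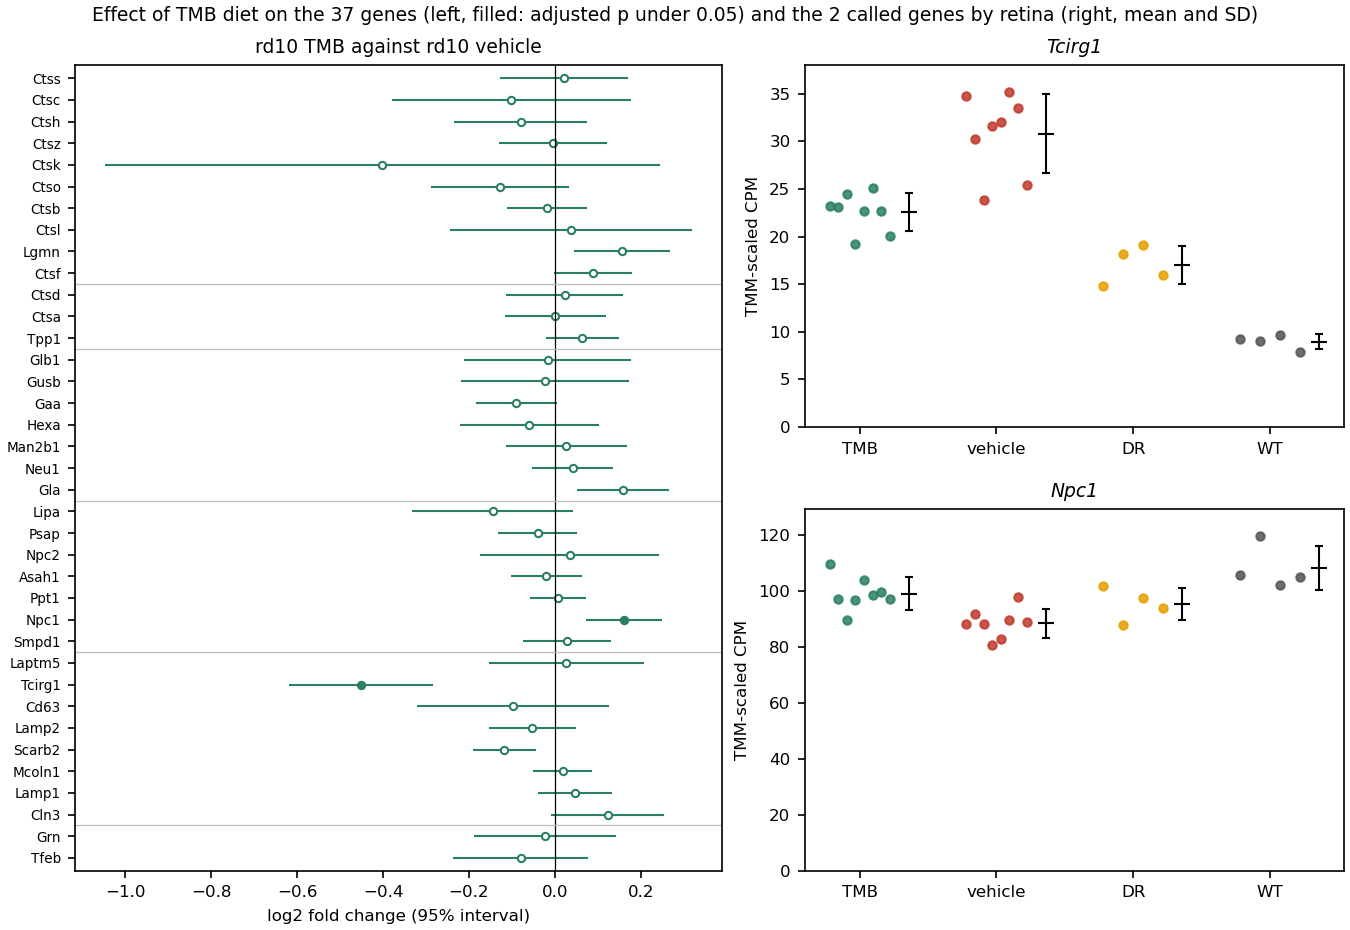
Left, log2 fold change of each of the 37 genes in rd10 TMB against rd10 vehicle retinas with 95% intervals; right, TMM-scaled CPM of Tcirg1 and Npc1 in each retina of the 4 groups with mean and SD. The filled points are Tcirg1 at -0.45 and Npc1 at 0.16, and the intervals of the other 35 genes are drawn with open points.

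Relative to rd10 DR retinas, rd10 vehicle retinas had 17 of 37 genes higher and 5 lower (21.9% and 20.6% of 20850 genes), and the median change was 0.16 on the log2 scale. The largest called increases were Tcirg1 (log2 fold change 0.85, SE 0.11, adjusted p = 2.16e-05), Ctss (log2 fold change 0.48, SE 0.090, adjusted p = 0.000531) and Lipa (log2 fold change 0.45, SE 0.100, adjusted p = 0.00193), and the decreases were Lgmn, Gla, Ctsf, Smpd1 and Cln3. Cell markers differed too, with 18 of 21 for microglia and macrophages and 9 of 10 for Müller glia higher in rd10 vehicle retinas. Of the pigment markers 5 of 8 were higher, and all 12 rod and all 5 erythrocyte markers were lower. Of 9 vessel markers 2 were higher and 1 was lower, and 2 of 4 leukocyte markers were higher. The part of these markers in the lysosomal values was not tested. Ctsc, Ctsh, Ctsd and Grn were called higher in rd10 DR against WT and passed no threshold between rd10 vehicle and rd10 DR. A further 12 genes were the reverse, called higher in rd10 vehicle against rd10 DR and not in rd10 DR against WT: Asah1, Ctsb, Ctso, Gaa, Glb1, Gusb, Hexa, Lamp2, Lipa, Ppt1, Psap and Tfeb. Without WT retina 3, Glb1, Gusb, Hexa, Lamp2, Lipa and Psap were called higher in rd10 DR against WT as well. Gusb lost its call between rd10 vehicle and rd10 DR without the retinas above 900 CPM of the pigment marker sum, where Lamp1 was called lower. With the RD10 retinas of the rd10 vehicle group alone, Ctsb, Glb1 and Gusb lost it, and Cd63 and Npc2 were called higher. The split also depended on scaling. With library totals in place of TMM factors, 24 genes were higher and 4 lower in rd10 vehicle than in rd10 DR retinas. Ctsh, Ctsd and Grn were then among the higher genes, and Cln3 lost its call.

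**Figure D5:**
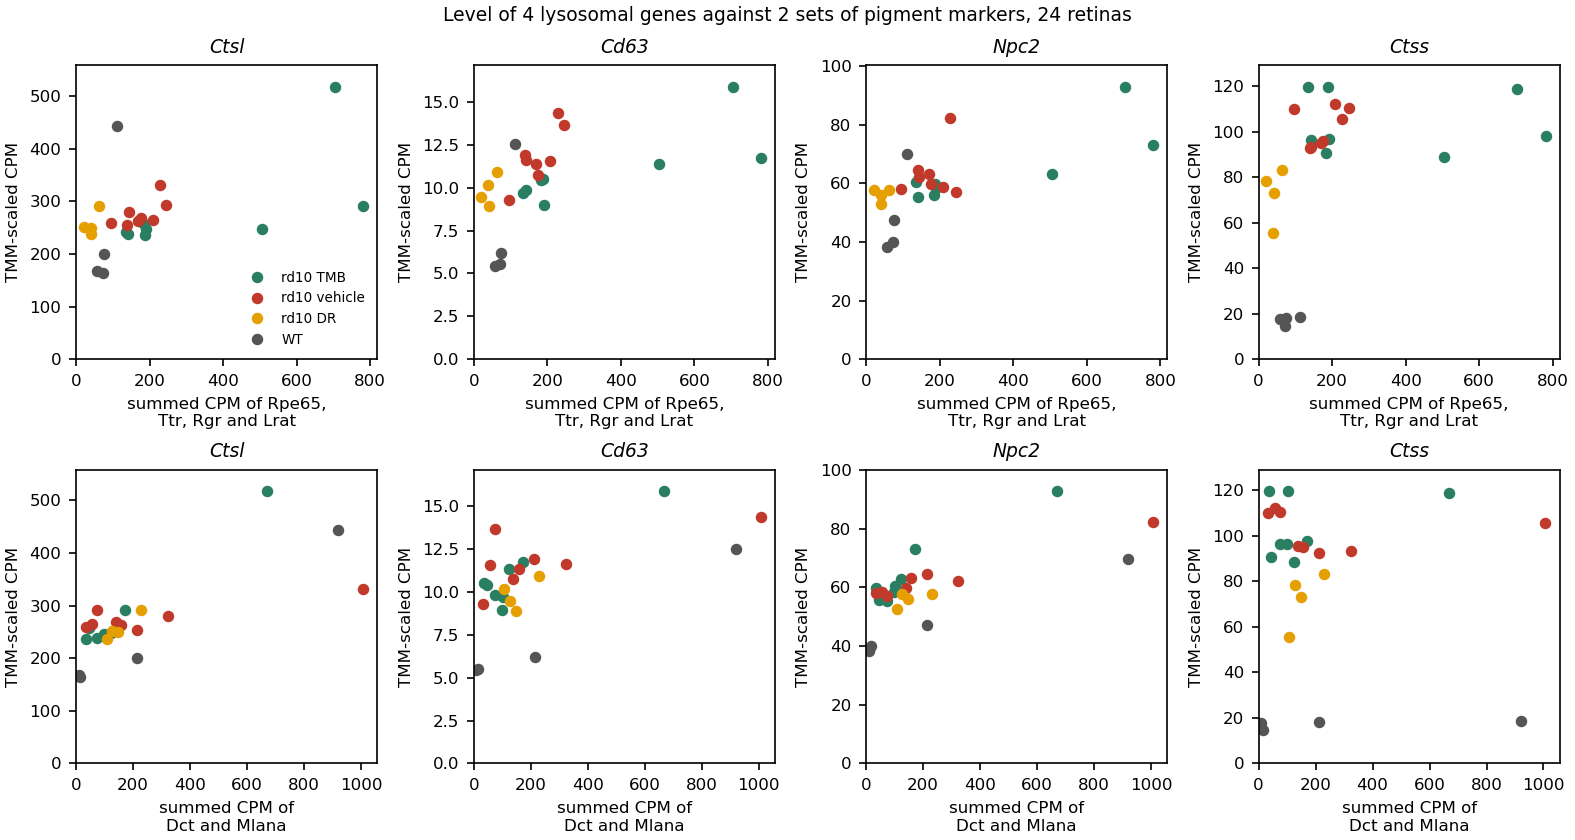
TMM-scaled CPM of Ctsl, Cd63, Npc2 and Ctss in each of the 24 retinas against the summed CPM of Rpe65, Ttr, Rgr and Lrat (upper row) and of Dct and Mlana (lower row), coloured by group. The 3 retinas farthest right in the lower row (1007, 920 and 669.5 CPM) have the 3 highest Ctsl values, while the 2 farthest right in the upper row (780.8 and 703.8 CPM) are rd10 TMB retinas 4 and 3, and Ctss of WT retina 3 (18.4 CPM) stays with the other WT retinas in both.

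Other genes of the lysosomal pathway, taken from lists by function, changed in part. Their counts in rd10 vehicle against WT stand beside 31.6% higher and 30.2% lower of all genes. Of 28 further lysosomal hydrolases, 15 were higher and 4 were lower in rd10 vehicle than in WT retinas, and 1 was lower in rd10 TMB than in rd10 vehicle: arylsulfatase B (Arsb, log2 fold change -0.16, SE 0.040, adjusted p = 0.0298). The largest changes belonged to Acp5 (log2 fold change 2.57, SE 0.70, adjusted p = 0.00552) and cathepsin E (Ctse, log2 fold change 2.08, SE 0.49, adjusted p = 0.00199), both under 1 CPM in every retina. Of 18 other subunits of the proton pump, 11 were higher and 2 were lower in rd10 vehicle than in WT, led by Atp6v0d2 (log2 fold change 2.47, SE 0.88, adjusted p = 0.0242), a macrophage and osteoclast subunit also under 1 CPM, and Atp6v0e (log2 fold change 0.50, SE 0.10, adjusted p = 0.000724). Atp6v1f (log2 fold change -0.14, SE 0.037, adjusted p = 0.037) and Atp6v1g2 (log2 fold change -0.15, SE 0.043, adjusted p = 0.0448) were lower in rd10 TMB than in rd10 vehicle. Of 19 other membrane proteins, 9 were higher and 4 were lower in rd10 vehicle than in WT. Cd68, a marker of phagocytes, averaged 7.60 ± 1.80 CPM in rd10 TMB and 7.94 ± 1.38 CPM in rd10 vehicle (SD, n = 8 each), and 6.15 ± 1.19 CPM in rd10 DR and 1.66 ± 0.58 CPM in WT retinas (SD, n = 4 each). It was 4.76-fold higher in rd10 vehicle than in WT (log2 fold change 2.25, SE 0.20, adjusted p = 4.17e-07). The metal transporter Slc11a1 was higher as well (log2 fold change 1.31, SE 0.48, adjusted p = 0.0288), and Mfsd8 was higher in rd10 TMB than in rd10 vehicle (log2 fold change 0.20, SE 0.052, adjusted p = 0.0366).

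Of the sorting machinery, 3 of 9 genes were higher and 2 were lower in rd10 vehicle than in WT, shares near those of all genes, led by Nagpa (log2 fold change 0.48, SE 0.097, adjusted p = 0.000642) and Gga2 (log2 fold change 0.37, SE 0.090, adjusted p = 0.00275). Of the 4 cathepsin inhibitors, 3 were higher and 1 was lower. The lower one was Cst3, by far the most abundant of the 4. It was between 431.6 and 578.3 CPM in rd10 vehicle retinas and between 607.4 and 689.9 CPM in WT retinas (log2 fold change -0.40). The summed level of the 4 averaged 638 CPM in rd10 TMB, 536 CPM in rd10 vehicle, 667 CPM in rd10 DR and 686 CPM in WT retinas. Cst7 (cystatin F), the inhibitor made by immune cells, averaged 2.67 ± 1.201 CPM in rd10 TMB and 2.12 ± 0.52 CPM in rd10 vehicle (SD, n = 8 each), and 1.44 ± 0.33 CPM in rd10 DR and 0.134 ± 0.067 CPM in WT retinas (SD, n = 4 each). No rd10 retina overlapped WT, and Cst7 was 15.5-fold higher in rd10 vehicle than in WT (log2 fold change 3.96, SE 0.31, adjusted p = 1.2e-07), while Cst6 was 1.46-fold higher (log2 fold change 0.55, SE 0.20, adjusted p = 0.0301). Of 14 relatives of Tfeb and regulators of mTORC1, 1 was higher and 5 were lower in rd10 vehicle than in WT, led by Fnip2 (log2 fold change -1.23, SE 0.095, adjusted p = 1.15e-07) and its partner folliculin (Flcn, log2 fold change -0.39, SE 0.11, adjusted p = 0.0065). Of 21 autophagy genes, 6 were higher and 8 were lower, again near the shares of all genes, with a median of -0.05. The receptor Optn fell to between 72.1 and 106.8 CPM in rd10 vehicle retinas, against 236 to 259 CPM in WT (log2 fold change -1.47, SE 0.084, adjusted p = 1.64e-08), and it was higher in rd10 TMB than in rd10 vehicle (log2 fold change 0.40, SE 0.081, adjusted p = 0.0231). The receptor Sqstm1 was higher in rd10 vehicle than in WT (log2 fold change 0.51, SE 0.060, adjusted p = 5e-06). Of the 5 genes of these lists called in rd10 TMB against rd10 vehicle, none was called without rd10 vehicle retina 1 or without retina 5. Of the 16 fits that left out 1 retina, Optn was called in 14, Arsb in 8, Atp6v1f and Mfsd8 in 5 each and Atp6v1g2 in 4.

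No difference between the sexes in these effects was called by edgeR. For rd10 vehicle against WT, 0 of 37 genes and 0% of 21806 genes passed the threshold for a sex by group interaction. An unadjusted p under 0.05 was found for 2 of the 37 and for 892 of the 21806 genes. The 2 were Ctsl and Cd63, each highest among WT retinas in retina 3, a male. For rd10 TMB against rd10 vehicle, 0 of 37 genes and 0% of 21272 genes passed, and 0 of the 37 and 827 of the 21272 genes had an unadjusted p under 0.05. DESeq2 called 0 of the 37 in either interaction.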

How the data were processed

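The authors sequenced polyadenylated RNA of 1 retina per mouse with a kit that does not mark strand. The submitters' processing notes name FastQC, Trimmomatic, STAR, HTSeq and DESeq2 and the builds GRCm38 and mm10, without versions. The values are whole-number counts per gene, deposited by the authors in 1 table, not normalized, with mitochondrial genes apart. Of its columns, 24 were matched to samples. The WT columns appear again in 8 columns that were not used, and 18 other columns, the authors' comparisons included, were not used. Analyses started from the nuclear counts.

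Each pair of groups was fitted with edgeR 4.0.16 (R 4.3.3): filterByExpr, TMM factors, quasi-likelihood test, and Benjamini-Hochberg adjustment over all genes, with a threshold of 0.05. DESeq2 1.42.0, library totals without TMM, no filter, 1 fit over all groups, sex or prefix as a covariate, each prefix alone and leaving out each retina were alternatives. Leaving out the 4 retinas above 900 CPM of 8 pigment markers, or the 3 above 50 CPM of Rpe65, was added after seeing the data. Genes shown in full were, in each role group, up to 3 past the threshold with the largest change in rd10 vehicle against WT, every gene lower in rd10 vehicle than in WT or called in rd10 TMB against rd10 vehicle, and Tfeb. Ctsl and Lgmn were added after their values were seen. From each pathway list, the 2 largest changes and any TMB call were named, and Cst3 was added after its values were seen. The genes and lists were chosen with earlier results of these data known. Fits were tested on simulated counts with a small set of genes changed, as many raised as lowered. No shift in composition like that between rd10 and WT retinas was simulated. Depth per library was 56799680 to 86471014 counts. Names matched GENCODE M21 for 99.1% of genes, which gave the positions. No library duplicated another. Each sample is a separate mouse.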

Additional observations from a re-analysis of the deposited data

Results flagged for a closer look

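In 22 of 148 groups of values (14.9%; chance gives about 1 in 20), the highest or the lowest retina stood apart from the others of its group by Dixon's criterion. The genes share libraries, so these groups are not independent. The same count was not made over other genes, so the share cannot be read as particular to the lysosomal genes. In rd10 TMB retina 3, which had the highest sum of the 8 pigment markers, 9 genes stood apart: Ctsl at 517 CPM, Lamp2 at 181.2 CPM, Grn at 116.6 CPM, Hexa at 105.4 CPM, Npc2 at 92.8 CPM, Ctsz at 70.1 CPM, Gusb at 26.8 CPM, Cd63 at 15.9 CPM and Ctsk at 4.19 CPM. In rd10 vehicle retina 1, the next by that sum through Dct and Mlana (1007 CPM) and with 20.4 CPM of Rpe65, 6 did: Ctsb at 661.3 CPM, Lamp1 at 278.6 CPM, Grn at 113.9 CPM, Npc2 at 82.2 CPM, Ctsz at 63.0 CPM and Ctsk at 7.48 CPM. In WT retina 3, the WT retina with the highest sum, also through Dct and Mlana (920 CPM), 3 did: Ctsl at 443.6 CPM, Glb1 at 20.2 CPM and Cd63 at 12.5 CPM. No value stood apart in rd10 TMB retina 4, where Rpe65 was highest (83.9 CPM). The part of either set of markers in these values was not tested.

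The other 4 values lay in retinas without a high sum of those markers. Ctsc was 70.7 CPM in rd10 vehicle retina 4, where the next highest rd10 vehicle retina had 39.4 CPM. Hexa was highest in rd10 DR retina 2, at 76.8 CPM. Laptm5 was lowest among rd10 vehicle retinas in retina 6, at 18.3 CPM, and Cln3 was lowest among rd10 DR retinas in retina 1, at 32.9 CPM.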

How the results depend on the processing

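Counts of the 37 lysosomal genes called by edgeR in rd10 vehicle against WT (31) and in rd10 vehicle against rd10 DR (22) stayed within 1.5 times of their value under each alternative run, and leaving out 1 retina gave 29 to 33 and 18 to 25. For rd10 TMB against WT (29 called), leaving out 1 retina gave 20 to 31, and the RD9 retinas of the rd10 TMB group alone gave 14, with fewer retinas in the fit. For rd10 DR against WT (12 called), leaving out 1 retina gave 8 to 24, the highest without WT retina 3, and leaving out the retinas above 900 CPM of the 8 pigment markers, an alternative chosen after seeing the data, removes that same retina and also gave 24. For rd10 TMB against rd10 vehicle (2 called), DESeq2 gave 4, no filter on low counts gave 1, 1 fit over all groups gave 4, the RD9 retinas alone 0, the RD10 retinas alone 0 the omission of the retinas above 900 CPM of pigment markers 0 and the omission of the retinas high in Rpe65, also chosen after seeing the data, 0. Leaving out 1 retina gave 0 to 5 there, with 0 without rd10 vehicle retina 1 or 5 and 5 without rd10 TMB retina 8. Calls over all genes in that comparison were 1152, against 2 without rd10 vehicle retina 1, 3 without retina 5, 3 without the retinas high in Rpe65, 0 within RD9 and 12 within RD10 retinas. The cause was not tested.

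With library totals in place of TMM factors, the log2 fold change turned to 0.12 for Tpp1, 0.13 for Neu1 and 0.053 for Lamp1 in rd10 vehicle against WT and to 0.027 for Npc1 in rd10 TMB against WT. The same setting shifted the median of all genes to 0.22 and 0.17. Between rd10 TMB and rd10 vehicle, Ctss was -0.011 with library totals, -0.12 in RD9 retinas and -0.011 to 0.052 without 1 retina. Laptm5 was -0.0056 with library totals, -0.12 in RD9 retinas, -0.048 without the retinas above 900 CPM of pigment markers, -0.025 without those high in Rpe65 and -0.040 to 0.064 without 1 retina. Neither gene was called under any of these. No paired analysis was possible because the replicate numbers follow the order of accessions and pair no samples. Counting depth limits genes under 1 CPM most, and 4 WT and 4 rd10 DR retinas limit the precision of each comparison with them.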
